A study of Mus musculus with 6 samples.

Results

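The genes described here are the readers, writers and erasers of N6-methyladenosine (m6A), a methyl mark on adenosines inside messenger RNA, together with Meioc, whose protein works with the reader YTHDC2. They were taken by symbol from a table of gene counts: Ythdc2, Ythdc1, Ythdf1, Ythdf2 and Ythdf3 (readers), Mettl3 and Mettl14 (writers), Alkbh5 and Fto (erasers) and Meioc. All 10 were found among the 55487 gene identifiers of the table, and all 10 were among the 19826 genes with enough reads to be tested. The counts come from polyadenylated RNA of whole testes of mice at postnatal day 19. Control testes (n = 3) carry a genotype the labels call only control, and dsfb testes (n = 3) carry SFB alleles of both Hormad genes (Hormad1 and Hormad2, whose proteins sit on the axes of meiotic chromosomes), per the title of the series. Each testis sample is from another mouse according to the labels, which give no strain and do not say what an SFB allele changes or which alleles the controls carry.

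The m6A mark is written on nuclear RNA by a METTL3 and METTL14 heterodimer, of which METTL3 is the catalytic subunit, and is removed by the demethylases ALKBH5 and FTO. Proteins with a YTH domain bind it: YTHDC1 in the nucleus, YTHDF1, YTHDF2 and YTHDF3 in the cytoplasm, and YTHDC2, which is also an RNA helicase. In the germ line YTHDC2 and its partner MEIOC are needed for cells to leave mitotic division and go on through meiotic prophase, and mouse germ cells that lack either enter an abnormal metaphase soon after meiosis begins.

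Meioc fell and Ythdf1 rose in the dsfb testes, Ythdc1 and Fto fell by smaller amounts, and the other 6 genes did not pass the test. Of the 10 genes 1 was higher and 3 were lower (edgeR adjusted p under 0.05), while over all tested genes 30.7% were higher, 36.2% lower and 66.9% called in either direction. The median log2 fold change of the 10 genes was -0.02 and that of all tested genes 0.02. In bulk testis RNA fewer cells of a type and less RNA per cell cannot be told apart, for any of the values below.

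The libraries held 15335130 to 27707291 counted reads and the dsfb libraries were the shallower ones, but each of the 10 genes had at least 417 reads in each library. Control replicate 3 stood apart from the other controls, with 330 CPM (reads of a gene as a share of the TMM-scaled library, in counts-per-million units) summed over 6 spermatid markers against 30.4 and 34.8 CPM. The sum of 10 early meiotic prophase markers was 2495 CPM in that library and 3572 and 3836 CPM in the other controls. Marker genes of several cell types differed between the groups. The summed level of 8 markers of mid to late pachytene spermatocytes was 6257 to 8571 CPM in control and 36.2 to 45.7 CPM in dsfb, and all 8 fell. All 8 autosomal Sertoli cell markers rose (sums of 798 to 1098 and 2001 to 2105 CPM), and of 10 markers of early meiotic prophase 3 rose and 3 fell (sums of 2495 to 3836 and 1892 to 2114 CPM). Of 8 spermatogonia markers 6 rose and 1, Dmrtb1, fell. Their median log2 change was 0.74, while their sums went from 659 to 877 CPM in control to 358 to 414 CPM in dsfb, of which Dmrtb1 alone went from 554 ± 142 to 45.3 ± 7.48 CPM. Some markers of peritubular cells (3 of 5), macrophages (3 of 5), Leydig cells (3 of 6) and endothelium (1 of 4) rose, and none of them fell. Of the targeted genes, Hormad1 was at 446, 486 and 209 CPM in control and 217, 246 and 243 CPM in dsfb (edgeR adjusted p = 0.0597). It passed as lower without control replicate 3 (edgeR adjusted p = 1.57e-10), with RLE scaling (0.0382), with no filter (0.0247) and with Sertoli scaling (0.00068). It also passed by DESeq2 (adjusted p = 0.00496) and with the replicate number as a block (edgeR adjusted p = 0.0493). Hormad1 did not pass with early meiotic (edgeR adjusted p = 0.0576), upper-quartile (0.217) or library-size scaling (0.361), with a 1 CPM filter (0.0633) or by limma-voom (0.109). Nor did it pass without control replicate 1 or 2 or without any 1 dsfb replicate (edgeR adjusted p = 0.126 to 0.180). Hormad2 fell from 52.7 ± 8.79 to 27.1 ± 1.79 CPM (SD, n = 3; edgeR adjusted p = 0.000757). Counts over whole genes do not check these genotypes.

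The stretches before the RefSeq transcription starts of the 4 genes that passed the test are printed here, in the GRCm38.p6 build, to show what lies in front of those starts. They were shortened where the gene begins earlier in GENCODE M21 than in RefSeq (Ythdf1 and Ythdc1). The Meioc stretch lies inside the gene as GENCODE M21 draws it, in an intron of a transcript that starts further upstream, and just before the exon at which the other transcripts begin. RefSeq promoters were matched for 7 of the 10 genes. Capitals mark matches on either strand to the CCAAT box (CCAAT), the E-box (CACGTG), the cAMP response element (TGACGTCA), the GC box (GGGCGG) and the STRA8 motif (CNCCTCAG), none of which overlap each other here.
Meioc, chr11:102665335-102665584, plus strand: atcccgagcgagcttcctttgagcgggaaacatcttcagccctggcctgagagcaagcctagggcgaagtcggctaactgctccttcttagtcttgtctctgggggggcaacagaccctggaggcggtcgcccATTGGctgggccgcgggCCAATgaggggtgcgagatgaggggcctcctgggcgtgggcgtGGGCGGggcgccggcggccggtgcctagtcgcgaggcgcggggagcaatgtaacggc
Ythdf1, chr2:180920950-180921186, minus strand: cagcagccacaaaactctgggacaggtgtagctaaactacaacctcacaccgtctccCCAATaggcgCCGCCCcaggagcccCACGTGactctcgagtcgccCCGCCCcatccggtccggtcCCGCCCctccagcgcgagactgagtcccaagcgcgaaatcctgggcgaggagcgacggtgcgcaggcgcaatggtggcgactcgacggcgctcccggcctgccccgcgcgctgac
Ythdc1, chr5:86804016-86804220, plus strand: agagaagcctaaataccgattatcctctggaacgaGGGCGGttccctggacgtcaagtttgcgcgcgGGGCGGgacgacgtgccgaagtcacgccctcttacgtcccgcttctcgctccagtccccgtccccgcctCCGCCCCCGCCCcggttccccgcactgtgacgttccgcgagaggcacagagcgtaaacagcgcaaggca
Fto, chr8:91313275-91313524, plus strand: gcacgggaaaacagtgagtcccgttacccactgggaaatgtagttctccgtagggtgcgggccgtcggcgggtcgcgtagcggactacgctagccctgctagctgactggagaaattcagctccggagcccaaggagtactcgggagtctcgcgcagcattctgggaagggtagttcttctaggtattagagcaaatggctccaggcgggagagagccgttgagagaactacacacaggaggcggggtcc

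The Meioc stretch held 2 CCAAT boxes on opposite strands, 117 and 100 bases before the start, and 1 GC box. The Ythdf1 stretch held 1 CCAAT box, 1 E-box and 3 GC boxes, and the Ythdc1 stretch held 4 GC boxes. None of the 5 motifs was found in the Fto stretch, which says only that these letters are not in this window. Over 32851 RefSeq promoter windows of 250 bases, 33.8% held a CCAAT box, 32.7% a GC box, 6.02% an E-box, 6.42% the STRA8 motif and 1.55% the cAMP response element. Such a match is a description of letters and not a measured site.

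Meioc, the partner of YTHDC2 in meiotic germ cells (ENSMUSG00000051455, chromosome 11, 102663716 to 102682237, plus strand of GRCm38), had levels of 518, 523 and 361 CPM in the controls, listed here and below by replicate 1, 2 and 3, against 223, 237 and 206 CPM in the dsfb testes. The groups did not overlap, as was the case for 74.7% of all tested genes, and control replicate 3 was the lowest control. Its mean went from 467 ± 92.0 to 222 ± 15.2 CPM (SD, n = 3), 2.10-fold lower (log2 -1.07, SE 0.15, edgeR adjusted p = 0.000589). Without control replicate 3 the log2 change was -1.26. Meioc fell past the threshold in each of the 17 settings tried, the reported one included. Of all tested genes 26.6% had a lower log2 fold change, so that the fall of Meioc is not extreme among the falls in these testes.

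Ythdc2, the helicase and m6A reader that binds MEIOC (ENSMUSG00000034653, chromosome 18, 44827746 to 44889724, plus strand), had levels of 155, 160 and 104 CPM in control and 131, 135 and 120 CPM in dsfb. The dsfb libraries lay between control replicate 3 and the other controls. Its log2 change of -0.12 (SE 0.16) had a 95% interval of -0.50 to 0.26 and did not pass (edgeR adjusted p = 0.539). The call rested on 1 library: without control replicate 3 the log2 change was -0.32 and Ythdc2 passed as lower (edgeR adjusted p = 0.00136). In that setting 4 of the 10 genes were lower and 1 higher, where 38.4% of all tested genes were lower and 33.2% higher.

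**Figure D1:**
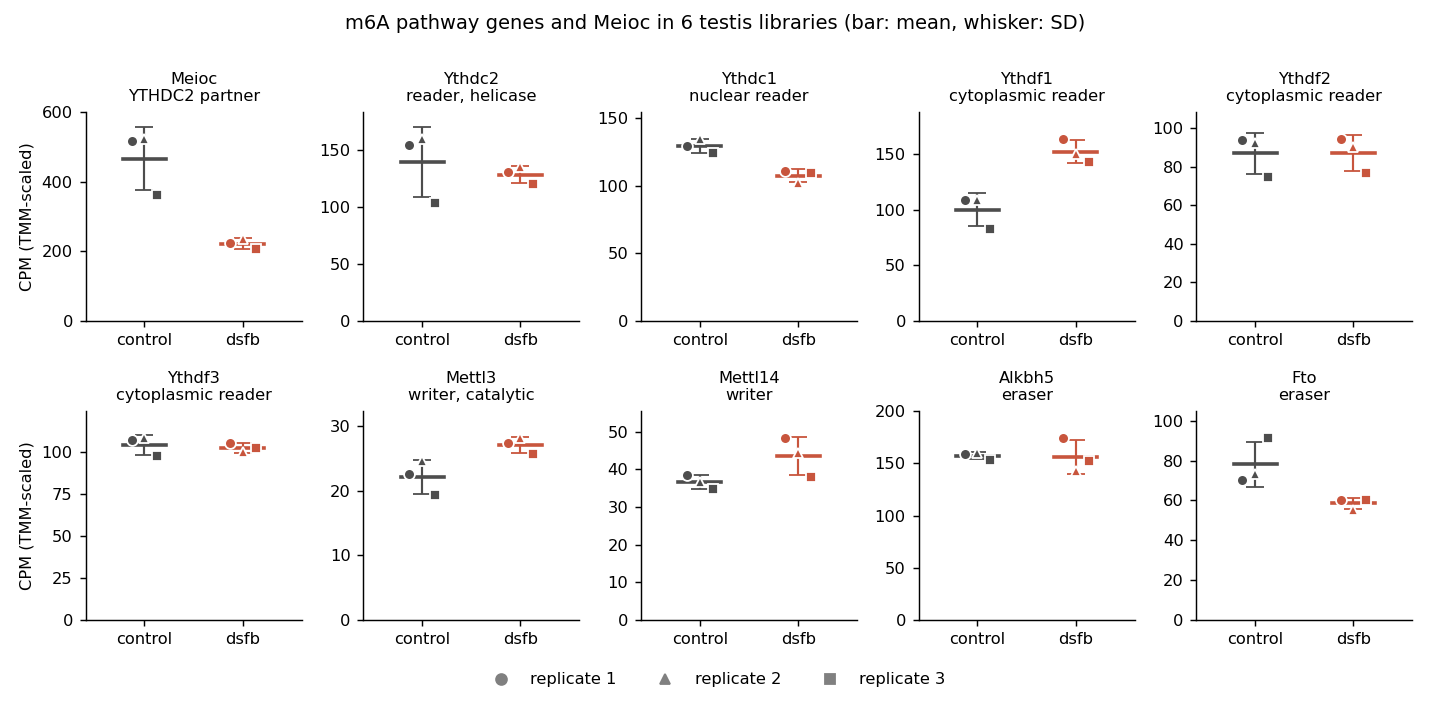
CPM on TMM-scaled library sizes (vertical axis, from 0, its range set for each gene) of the 10 genes in 3 control and 3 dsfb libraries. Symbols are libraries, horizontal bars are means and whiskers SD; the 3 dsfb libraries of Meioc sit at 206 to 237 CPM, below the lowest control at 361 CPM, while those of Ythdc2 sit inside the control range.

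Within each library the balance of Meioc to Ythdc2 reads was steadier than either gene alone. There were 3.35, 3.28 and 3.48 Meioc reads per Ythdc2 read in control replicates 1, 2 and 3 and 1.71, 1.76 and 1.72 in dsfb replicates 1, 2 and 3. The 3 control values lay close to each other, control replicate 3 included, and the dsfb values did too. The ratio was 1.95-fold lower in dsfb (log2 -0.96, SD 0.04 in control and 0.02 in dsfb). A ratio within a library does not depend on how libraries are scaled. By exact permutation of the labels (two-sided) p was 0.1, and no smaller value can come from 3 against 3; adjusted over the 8 planned ratios it was 0.133. The groups did not overlap in 6 of these 8 ratios, while 74.7% of all tested genes taken singly did not overlap. The share for ratios of other gene pairs was not measured.

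Rbm46, an RNA-binding protein of germ cells that works with YTHDC2 and MEIOC, had a profile like that of Meioc. Rbm46 was not among the 5 profiles nearest to Meioc, which are listed below. It was at 167, 169 and 117 CPM in control and at 74.0, 87.4 and 76.0 CPM in dsfb, and fell 1.91-fold (log2 -0.93, SE 0.15, edgeR adjusted p = 0.00123). There were 3.09, 3.10 and 3.09 Meioc reads per Rbm46 read in control and 3.02, 2.71 and 2.72 in dsfb, so the groups did not overlap. The Rbm46 to Ythdc2 ratio was 1.77-fold lower in dsfb, and both ratios with Rbm46 were chosen after its values had been seen. The other genes of the list of partners and meiotic entry went the other way. Stra8, the retinoic acid-induced gene of meiotic entry, rose 1.91-fold from 46.7 ± 13.5 to 89.3 ± 17.9 CPM, and Gm4969, which encodes the STRA8 partner MEIOSIN, rose 1.91-fold from 67.6 ± 13.4 to 129 ± 16.4 CPM. Xrn1, the 5′ to 3′ exonuclease that binds YTHDC2, rose 1.26-fold (edgeR adjusted p = 0.0387), and it shares exonic bases with genes on the opposite strand. Relative to Sertoli markers, whose RNA rose, Stra8 and Gm4969 had log2 changes of -0.10 and -0.11 and neither passed. Of the 8 spermatogonia markers 6 rose, Gfra1 did not pass (log2 0.02) and Dmrtb1 fell (log2 -3.61). Among those that rose, Kit, Lin28a and Sohlh1, named after their values were seen, changed by log2 0.74, 0.91 and 1.16. The part of spermatogonia in the rises of Stra8 and Gm4969 was not tested.

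**Figure D2:**
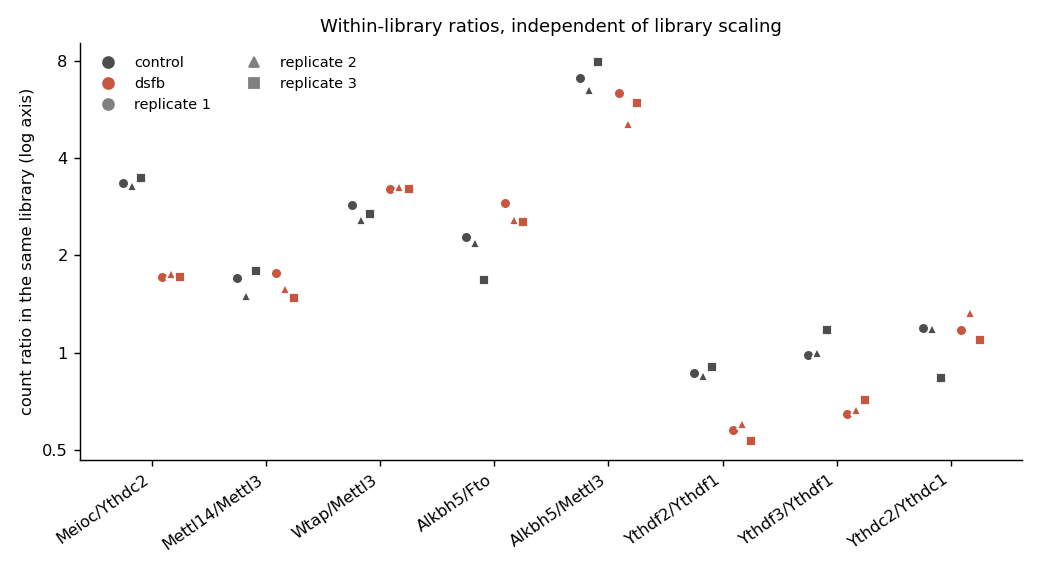
Ratios of counts of gene pairs in the same library (vertical axis, logarithmic), for the 8 planned pairs, with control in grey and dsfb in red and a symbol for each replicate. The Meioc to Ythdc2 ratios are 3.28 to 3.48 in control and 1.71 to 1.76 in dsfb, and the Mettl14 to Mettl3 ratios of the groups overlap.

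By a fixed measure of likeness, the root mean square difference of log2 CPM centred on each gene's mean over the 6 libraries, the 5 profiles nearest to Meioc among 14305 genes with at least 1 CPM were those of Kif20b (0.041), Kbtbd8 (0.041), Fam208a (0.044), Rps7 (0.047) and Eif3e (0.052). Their log2 fold changes lay between -1.06 and -1.16. For Kif20b, a kinesin of cell division, the libraries were at 140, 144 and 98.5 CPM in control and 62.8, 67.5 and 53.8 CPM in dsfb, with control replicate 3 the lowest control, as for Meioc. The 5 nearest to Ythdc2 were Taf7 (0.028), Zfp160 (0.028), Odr4 (0.031), Rnf2 (0.032) and Gtpbp10 (0.034), with log2 fold changes of -0.10 to -0.16, none of which passed. Rps7 has pseudogene copies with which its reads can be divided.

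Among the YTHDF readers Ythdf1 rose and its paralogs did not pass. Ythdf1, a cytoplasmic reader tied to translation (ENSMUSG00000038848, chromosome 2, 180904377 to 180920949, minus strand), was at 108, 108 and 82.8 CPM in control and at 163, 150 and 143 CPM in dsfb. Every dsfb library lay above the highest control. It rose 1.52-fold, from 99.8 ± 14.7 to 152 ± 10.3 CPM (SD, n = 3; log2 0.61, SE 0.12, edgeR adjusted p = 0.00327). Ythdf1 was called higher in 16 of 17 settings, and with libraries scaled on Sertoli markers it was called lower (log2 -0.44), where the median of all genes was -1.04.

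Ythdf2, which directs marked RNA to decay (ENSMUSG00000040025, chromosome 4, 132184912 to 132212303, minus strand), was at 93.9, 92.2 and 74.8 CPM in control and 94.4, 90.3 and 76.6 CPM in dsfb. The values of the groups all but coincided, with a log2 difference of 0.0024 and a 95% interval of -0.28 to 0.29 (edgeR adjusted p = 0.988). Ythdf3 (ENSMUSG00000047213, chromosome 3, 16183212 to 16217037, plus strand) had levels of 107, 108 and 97.3 CPM in control and 105, 99.8 and 102 CPM in dsfb, with an interval of -0.21 to 0.16. Set against Ythdf1 in the same library, both paralogs were lower in dsfb. The Ythdf2 to Ythdf1 ratio was 0.866, 0.851 and 0.903 in control and 0.578, 0.602 and 0.536 in dsfb, 1.53-fold lower. For Ythdf3 to Ythdf1 the ratios were 0.987, 0.998 and 1.18 in control and 0.645, 0.665 and 0.714 in dsfb, 1.56-fold lower. Neither set of groups overlapped, and both tests gave p = 0.1 (exact two-sided permutation test, 0.133 adjusted).

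Ythdc1, the nuclear reader that acts in splicing and export of marked RNA (ENSMUSG00000035851, chromosome 5, 86804221 to 86836659, plus strand), had levels of 129, 134 and 124 CPM in control and 111, 102 and 109 CPM in dsfb. The groups did not overlap, with a gap between them wider than the range of either group. Ythdc1 shares 631 exonic bases with Gm43055 on the same strand. Its log2 change was -0.27 (SE 0.08, edgeR adjusted p = 0.0171). The call was lost without control replicate 2 or dsfb replicate 2 or 3 (edgeR adjusted p = 0.0542 to 0.0864), and with libraries scaled on early meiotic markers (0.244). Upper-quartile scaling gave a log2 change of 0.0071 and library size alone 0.12, settings under which the all-gene median lies 0.278 and 0.396 higher. The Ythdc2 to Ythdc1 ratio, 1.196, 1.188 and 0.835 in control and 1.18, 1.33 and 1.10 in dsfb, overlapped between the groups (exact two-sided permutation p = 0.6).

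**Figure D3:**
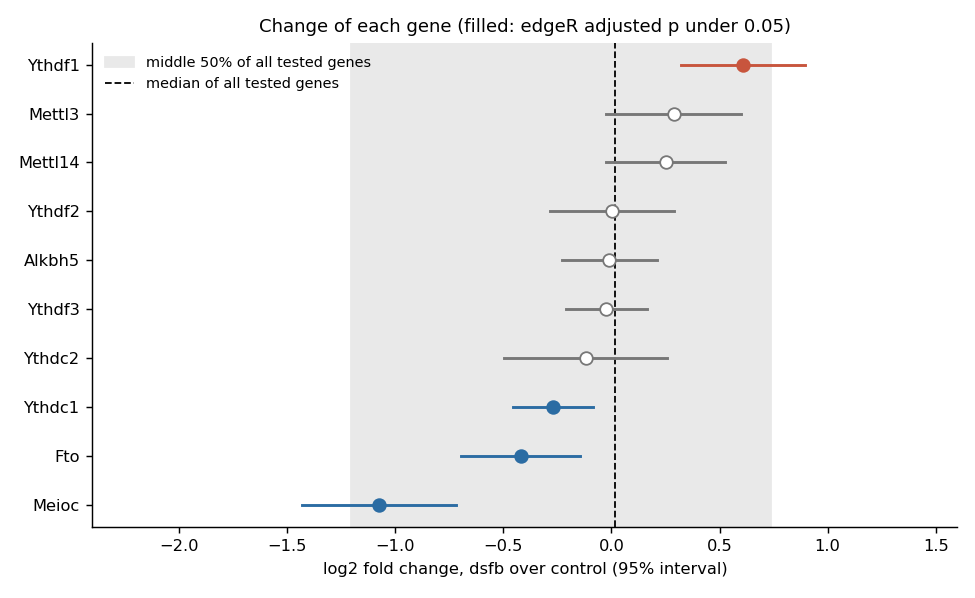
Log2 fold change of dsfb over control (horizontal axis) of the 10 genes with its 95% interval, filled where the edgeR adjusted p was under 0.05, blue for lower and red for higher. The dashed line is the median of all 19826 tested genes and the grey band their middle 50%; all 10 genes have values inside the band, with Meioc nearest to its lower edge and Ythdf1 to its upper edge.

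Neither gene of the writer heterodimer passed, and their ratios overlapped between the groups. Mettl3, the methyltransferase itself (ENSMUSG00000022160, chromosome 14, 52294841 to 52305128, minus strand), was at 22.5, 24.5 and 19.3 CPM in control and 27.3, 28.1 and 25.6 CPM in dsfb. The dsfb libraries lay just above the controls, and the log2 change of 0.29 had an interval of -0.02 to 0.60 (edgeR adjusted p = 0.0909). Mettl3 shares 933 exonic bases with Tox4 on the opposite strand, and no source used here gives the strand setting of the counting. Mettl14, its RNA-binding partner (ENSMUSG00000028114, chromosome 3, 123368297 to 123386108, minus strand), was at 38.3, 36.7 and 34.7 CPM in control and 48.2, 44.3 and 38.0 CPM in dsfb, with groups that overlapped at dsfb replicate 3. Its log2 change of 0.25 did not pass (edgeR adjusted p = 0.0941) but did without dsfb replicate 3 (0.35, edgeR adjusted p = 0.0458). There were 1.70, 1.49 and 1.79 Mettl14 reads per Mettl3 read in control and 1.76, 1.58 and 1.48 in dsfb (log2 difference -0.05, exact two-sided permutation p = 0.7). Both writers passed as higher with upper-quartile or library-size scaling.

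The other subunits of the writer complex moved in both directions: of 6, 3 rose, 2 fell and 1 did not pass. Over all tested genes 30.7% were higher and 36.2% lower. Rbm15, which recruits the complex to RNA, fell 1.47-fold from 72.0 ± 3.66 to 48.9 ± 0.989 CPM, while its paralog Rbm15b rose 1.29-fold. Cbll1 (HAKAI), a ubiquitin ligase subunit, fell 1.597-fold and Zc3h13, which holds the complex in the nucleus, rose 1.55-fold. Cbll1 shares exonic bases with a gene on the opposite strand. With library size alone Rbm15 was at log2 -0.16 (edgeR adjusted p = 0.148) and Cbll1 at -0.28 (0.0715), and both calls were lost. Wtap, the regulatory subunit that binds the heterodimer, was at 64.7, 63.3 and 51.7 CPM in control and 87.4, 91.7 and 82.0 CPM in dsfb and rose 1.45-fold. There were 2.87, 2.58 and 2.68 Wtap reads per Mettl3 read in control and 3.20, 3.26 and 3.20 in dsfb, with no overlap (exact two-sided permutation p = 0.1). Virma, the scaffold, was at 157 ± 15.5 and 159 ± 3.03 CPM. The summed level of the 6 subunits was 414 to 489 CPM in control and 504 to 514 CPM in dsfb.

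The erasers parted: Fto fell and Alkbh5 did not pass. Alkbh5, a demethylase whose loss impairs male fertility in mice (ENSMUSG00000042650, chromosome 11, 60536381 to 60558512, plus strand), had levels of 159, 160 and 153 CPM in control and 174, 143 and 152 CPM in dsfb. The dsfb libraries lay on both sides of the controls, and the log2 change was -0.01 with an interval of -0.23 to 0.21 (edgeR adjusted p = 0.932). Fto (ENSMUSG00000055932, chromosome 8, 91313525 to 91668439, plus strand) had levels of 70.0, 73.2 and 91.1 CPM in control and 59.9, 55.4 and 60.0 CPM in dsfb. It was highest in control replicate 3, the library in which Meioc and Ythdc2 were lowest among the controls. It fell 1.34-fold (log2 -0.42, SE 0.12, edgeR adjusted p = 0.0148), or with a log2 change of -0.32 without that library. The call was lost without dsfb replicate 2 (log2 -0.37, edgeR adjusted p = 0.0627) and with early meiotic scaling (log2 -0.39, SE 0.23, adjusted p = 0.182), where the change stayed about as large. Upper-quartile scaling brought it to -0.14 (edgeR adjusted p = 0.301) and library size alone to -0.02 (0.88). Fto shares 448 exonic bases with genes on the opposite strand. The Alkbh5 to Fto ratio was 2.27, 2.18 and 1.68 in control and 2.90, 2.58 and 2.54 in dsfb, and Alkbh5 to Mettl3 was 7.06, 6.51 and 7.94 in control and 6.37, 5.08 and 5.93 in dsfb. In neither did the groups overlap (exact two-sided permutation p = 0.1, 0.133 adjusted).

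Levels can be compared between genes only per length, here as CPM per kilobase of merged exons (RPKM). In control Meioc was the highest of the 10 at 101 ± 19.9 RPKM, followed by Ythdf1 (30.1 ± 4.44) and Alkbh5 (26.3 ± 0.573), whose ranges overlapped. Ythdf3 (19.4 ± 1.10), Ythdf2 (19.02 ± 2.31) and Ythdc2 (15.7 ± 3.48) came next, each overlapping its neighbour, then Ythdc1 (9.48 ± 0.366), Fto (5.99 ± 0.874) and, with overlapping ranges, Mettl14 (4.93 ± 0.248) and Mettl3 (4.36 ± 0.517). In dsfb Meioc at 48.1 ± 3.28 RPKM overlapped Ythdf1 at 45.9 ± 3.09 RPKM, and Fto was the lowest at 4.48 ± 0.204 RPKM. The order of the lower genes rests on the length used. With the longest transcript in place of merged exons, Ythdc1 was at 20.5, Fto at 16.6 and Mettl3 at 10.2 RPKM in control.

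Of the 44 other genes of the pathway lists 14 were higher, 16 lower and 14 did not pass. Over all tested genes 30.7% were higher and 36.2% lower, close to the shares of these 44 genes. The counts of the single lists stand against the same all-gene shares. In the list of other m6A methyltransferases 1 of 5 rose (Zcchc4, a ribosomal RNA methyltransferase, 1.35-fold) and 1 fell (Trmt112, a cofactor of several methyltransferases, 1.504-fold). The call of Zcchc4 was lost without control replicate 2, dsfb replicate 1 or dsfb replicate 3 and with no filter (edgeR adjusted p = 0.0667 to 0.115), and with Sertoli scaling its log2 change was -0.62. That of Trmt112 was lost without dsfb replicate 1 (edgeR adjusted p = 0.0507) and with early meiotic (0.0642), upper-quartile (0.108) and library-size scaling (0.309). Trmt112 shares exonic bases with genes on the opposite strand. Mettl16, which methylates the U6 small nuclear RNA, was at 65.3 ± 14.96 and 89.2 ± 12.5 CPM (edgeR adjusted p = 0.0629).

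Of 8 other proposed readers 3 rose and 2 fell. Igf2bp3 fell 3.30-fold, from 67.1 ± 13.6 to 20.3 ± 1.75 CPM, and its paralog Igf2bp1 rose 2.11-fold, from 20.01 ± 2.53 to 42.3 ± 3.29 CPM; Igf2bp3 shares 1529 exonic bases with Malsu1 on the opposite strand. With Sertoli scaling the call of Igf2bp1 was lost (log2 0.03, edgeR adjusted p = 0.874). These 3 IGF2BP proteins bind and stabilise RNA, and Igf2bp2 was at 5.62 ± 0.344 and 5.74 ± 1.18 CPM. Rbmx, an X-linked RNA-binding protein, rose 2.81-fold from 24.5 ± 2.55 to 68.8 ± 3.82 CPM, and X-linked Fmr1, named after its values were seen, rose 2.93-fold.

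In the CCR4-NOT deadenylase, which shortens poly(A) tails and is recruited by YTHDF2, 5 of 11 genes fell and 2 rose. Cnot4, a ubiquitin ligase in this list, fell 2.84-fold from 152 ± 11.7 to 53.3 ± 5.67 CPM. Cnot1, the scaffold of the deadenylase, fell 1.73-fold from 1164 ± 36.7 to 674 ± 32.1 CPM. Cnot6l, a catalytic subunit, rose 1.81-fold from 66.5 ± 12.8 to 120 ± 1.46 CPM, while its paralog Cnot6 was at 169 ± 20.3 and 156 ± 1.77 CPM. The mitotic cell cycle list had 5 falls and 2 rises among 10 genes. Ccna2, the cyclin that the YTHDC2 and MEIOC pair is known to keep low in meiosis, rose 1.70-fold from 27.2 ± 3.72 to 46.3 ± 4.19 CPM and was singled out after its values were seen; it overlaps Exosc9 on the opposite strand. Plk1, Foxm1 and Ccnb1, which drive entry into division, fell 3.19-fold, 2.39-fold and 1.55-fold, and with library size alone the call of Ccnb1 was lost (log2 -0.24, edgeR adjusted p = 0.0611). Markers of mid to late pachytene cells fell, and those of Sertoli cells, most of spermatogonia and some of peritubular cells (sums of 191 to 304 and 349 to 476 CPM) and macrophages (62.0 to 84.4 and 95.9 to 154 CPM) rose beside these lists. Their part in the changes was not tested.

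**Figure D4:**
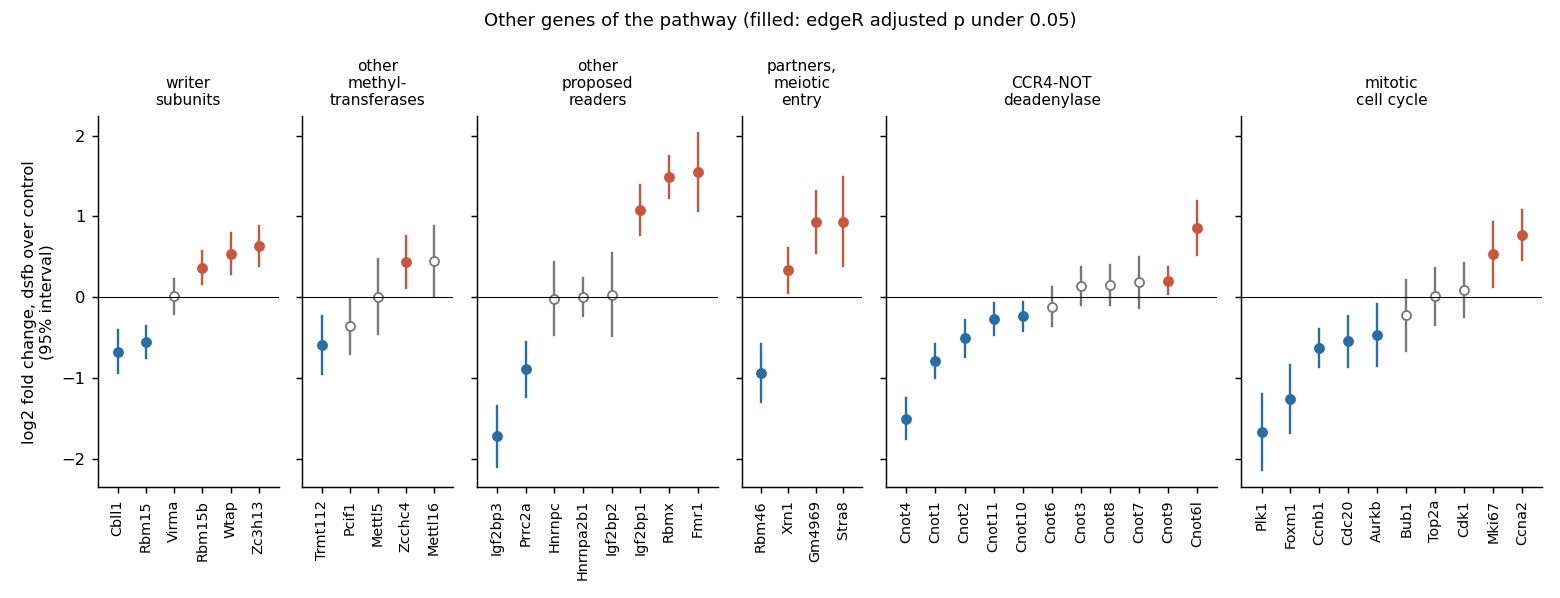
Log2 fold change of dsfb over control (vertical axis) with its 95% interval for 44 other genes of the pathway in 6 lists, ordered by value within a list, filled where the edgeR adjusted p was under 0.05. The lists hold genes on both sides of 0, from Igf2bp3 at -1.72 to Fmr1 at 1.55.

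Another scaling shifts all genes together by construction, so it could hardly change the order of the 10 genes. That Meioc was the lowest and Ythdf1 the highest of the 10 in each of 6 scalings is therefore no further evidence. Relative to the median of all tested genes, Meioc lay between -1.28 and -0.86 over the 17 settings and Ythdf1 between 0.44 and 0.82. Libraries scaled on Sertoli markers moved the median of all genes by -1.06, and all 10 genes were then lower, from -0.44 for Ythdf1 to -2.11 for Meioc, as were 63.6% of all tested genes. With library size alone 6 of the 10 were higher and Meioc was the gene that was lower, where 45.1% of all tested genes were higher and 28.9% lower.

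**Figure D5:**
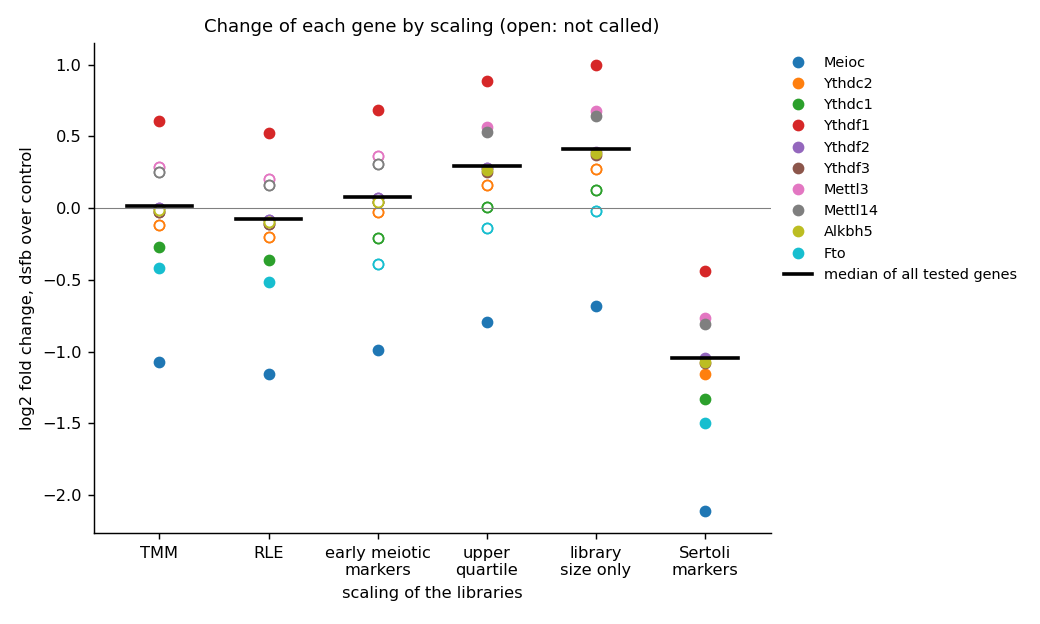
Log2 fold change of dsfb over control (vertical axis) of the 10 genes under 6 ways to scale the libraries (horizontal axis), open where the edgeR adjusted p was 0.05 or more; black bars are the median of all tested genes. The genes shift with the median by construction, so Meioc stays the lowest and Ythdf1 the highest of the 10 genes in each scaling.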

How the data were processed

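Polyadenylated RNA of 6 testes was sequenced, 3 per group, and the aligner was STAR 2.6.0 with the mm10 build, per the submitters' processing notes. The deposited values are raw gene counts, 1 column per library; no source used here gives the counting tool, its annotation or its strand setting. Symbols, positions and exon lengths come from GENCODE M21 (GRCm38), which held 55227 of 55487 identifiers, and promoters from RefSeq (GRCm38.p6). The members and lists were chosen with earlier results of these data known.

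All genes were fitted with edgeR 4.0.16 in R 4.3.3 (filterByExpr, TMM, glmQLFit, glmQLFTest, group as the only term), with Benjamini-Hochberg adjustment over 19826 genes and a threshold of 0.05. The SE was taken from the fold change and F (log2 size divided by root F), and 95% intervals use edgeR's total degrees of freedom. On simulated counts of 19826 genes for this comparison the fit called 48 of 62 genes given a 4-fold change, 25 of 65 at 2-fold and 5 of 66 at 1.5-fold. These counts hold only genes that passed the count filter again in the simulated counts, and changed genes lost to it are left out. Of the genes that passed, 19167 were unchanged, while 66.9% of tested genes were called in the data. With few changed genes the adjusted threshold is stricter, so these rates do not carry over to the data. Read ratios within a library were compared by exact permutation of labels.

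Named genes were the 10 members, Hormad1 and Hormad2, up to 3 genes per pathway list with the smallest p among those that passed, and the 5 profiles nearest to Ythdc2 and to Meioc (log2 of CPM plus 0.5); others are said to be chosen after their values were seen, or stand as paralogs or subunits of a list. Alternatives were other scalings, filters on low counts, DESeq2 1.42.0, limma 3.58.1 (voom), a replicate block and leaving out each library.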

Additional observations from a re-analysis of the deposited data

How the results depend on the processing

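Meioc kept its direction and its call in each alternative. Members called higher numbered 1 with all libraries, 5 with upper-quartile scaling, 6 with library size only and 0 with Sertoli scaling (edgeR; all 10 were lower there), and 1 to 2 with a library left out. Members called lower numbered 3, 1 with upper-quartile, library-size or early meiotic scaling, 10 with Sertoli scaling, and 1 to 4 with a library left out. Of all tested genes 30.7% were higher and 36.2% lower in the reported fit. These shares were 41.3% and 30.9% with upper-quartile scaling and 45.1% and 28.9% with library size only. They were 1.3% and 63.6% with Sertoli scaling and 29.2% and 31.5% with early meiotic scaling. With a library left out they ranged from 23.2% to 33.2% and from 32.4% to 38.4%. Genes called over the whole table were 13256, and 11829 to 14217 with a library left out. Signs turned as follows. With upper-quartile scaling the log2 changes of Ythdc2, Ythdc1, Ythdf3 and Alkbh5 were 0.16, 0.0071, 0.25 and 0.27, and with library size only 0.27, 0.12, 0.37 and 0.38. With early meiotic scaling Ythdf3 was at 0.040 and Alkbh5 at 0.046. With Sertoli scaling Ythdf1, Ythdf2, Mettl3, Mettl14, Zc3h13, Zcchc4, Gm4969, Stra8 and Cnot6l were at -0.44, -1.04, -0.76, -0.81, -0.41, -0.62, -0.11, -0.10 and -0.18. Ythdf2 was at -0.085 with RLE scaling, -0.085 with DESeq2 and -0.069 with no filter. With 1 library left out Ythdf2 ranged from -0.12 to 0.10, Ythdf3 from -0.10 to 0.0018, Alkbh5 from -0.086 to 0.060 and the log2 Mettl14 to Mettl3 ratio from -0.12 to 0.0071. Another scaling shifts all genes together by construction; for the turns with no filter and with left-out libraries the cause was not tested. The share of calls that were higher was 45.9%, 57.2% with upper-quartile scaling, 60.9% with library size only, 35.5% with no filter and 2.00% with Sertoli scaling. Same-numbered samples had weak positive correlations of their deviations (0.078, 0.085 and 0.13). Each sample correlated best with its own number, which is a hint from the data. The submitters' design text speaks of 3 pairs of testes but does not say whether same-numbered samples are littermates. The numbers were therefore not taken as pairs. With the number as a block 13431 genes were called, with 31.4% of tested genes higher and 36.3% lower. The members' calls then numbered 1 higher and 3 lower, and Hormad1 passed (log2 -0.61, edgeR adjusted p = 0.0493). The block left the Meioc to Ythdc2 ratio at -0.96. Leaving out libraries kept that ratio between -0.98 and -0.94. Depth gave each member at least 417 reads per library, and the values printed are limited by 3 samples per group.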
